A study of Mus musculus with 11 samples.

Results

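RFX1 and RFX3 binding sites were compared one by one in mouse ependymal cells, which line the ventricles of the brain and carry many motile cilia each. The members were all 16758 peaks of the RFX1 list (7440) and of the RFX3 list (9318), out of 18008 peaks in the lists of RFX1, RFX2 and RFX3. A peak was called shared when it had at least 1 bp in common with a peak of the other factor. All samples were wild type and came from OF1 mice, with the tissue labelled as lateral walls of the embryonic brain, the age as P0 and the cells as ependymal cells differentiated ex vivo. RFX1 was pulled down with an RFX1 antibody (2 ChIP samples, 2 inputs) and RFX3 with a different, RFX3 antibody (2 ChIP samples, 1 input), among 11 samples in the series. Each factor had 1 list with its replicates already merged, so no value below has a replicate error, and the read depth behind a list is unknown. The antibody, the inputs and the factor change together between the lists and cannot be told apart.

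RFX proteins recognise DNA through a winged-helix domain, and their element is the X-box, an inverted repeat in which a GTTNCC arm and a GGNAAC arm are separated by a short gap. RFX2 and RFX3 are known for switching on genes of cilia, the microtubule-based projections that move cerebrospinal fluid in ependyma. RFX1 is widely expressed and was first isolated through its binding to the X-box of MHC class II promoters. RFX1, RFX2 and RFX3 have closely related DNA-binding domains and can form homodimers and heterodimers.

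The genes shown here carry the largest contrasts or the strongest joint signal of the factors, or are ciliary genes that leaned to one of them. The sequences below are stretches around the best inverted pair, cut from promoter windows in which both summits lay. They come from the RefSeq promoter table of GRCm38.p6 and run 5′ to 3′ along the gene. Capitals mark the best inverted pair: GTTNCC, a gap of 0 to 3 bases, then GGNAAC, on either strand, with at most 1 mismatch over the 10 named letters. Where a window held equally good matches, the first along the gene was kept. The Ttll10 stretch holds further matches with 1 mismatch downstream of the marked one. Up to 30 bases are printed on each side, so a summit can lie outside the printed bases. Both summits do so at Ttll13, Dnah9, Nme7 and Mapre3, and the RFX3 summit alone does so at Mns1 and Bbs7. Genes where RFX1 ranked far above RFX3 had the following stretches. They lie at chr7:80246301-80246372 (plus strand) for Ttll13, chr9:72438514-72438558 (plus strand) for Mns1, chr1:83159726-83159791 (plus strand) for Daw1 and chr3:36613467-36613540 (minus strand) for Bbs7. The others lie at chr11:66168591-66168663 (minus strand) for Dnah9, chr19:47937623-47937695 (plus strand) for Cfap58 and chr1:164307639-164307701 (plus strand) for Nme7.
Ttll13: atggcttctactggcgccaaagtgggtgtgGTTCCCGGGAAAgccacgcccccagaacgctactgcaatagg
Mns1: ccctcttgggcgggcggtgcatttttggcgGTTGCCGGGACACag
Daw1: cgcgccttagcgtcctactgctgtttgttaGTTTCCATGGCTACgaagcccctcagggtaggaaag
Bbs7: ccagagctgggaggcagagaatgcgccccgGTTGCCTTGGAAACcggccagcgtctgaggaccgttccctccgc
Dnah9: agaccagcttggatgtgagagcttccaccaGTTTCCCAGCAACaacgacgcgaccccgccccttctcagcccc
Cfap58: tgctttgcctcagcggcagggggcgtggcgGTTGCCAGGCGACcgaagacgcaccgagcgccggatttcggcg
Nme7: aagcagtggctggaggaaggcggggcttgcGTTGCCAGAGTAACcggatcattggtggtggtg
Bbs7 was the single gene printed whose match had 0 mismatches, and Ttll13 was the single one with a gap of 0. Deup1, where RFX3 ranked far above RFX1, had this stretch, at chr9:15627890-15627963 (minus strand) for Deup1.
Deup1: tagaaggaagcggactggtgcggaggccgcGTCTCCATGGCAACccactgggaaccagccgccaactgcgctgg
Genes near the top of both lists had these stretches, at chr5:30814458-30814531 (plus strand) for Mapre3, chr4:156050802-156050874 (minus strand) for Ttll10 and chr9:36821792-36821865 (plus strand) for Fez1.
Mapre3: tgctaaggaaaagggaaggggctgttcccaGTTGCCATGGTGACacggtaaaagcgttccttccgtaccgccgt
Ttll10: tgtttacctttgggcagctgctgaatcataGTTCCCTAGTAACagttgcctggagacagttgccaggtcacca
Fez1: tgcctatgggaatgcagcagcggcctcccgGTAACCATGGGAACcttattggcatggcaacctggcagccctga
The Daw1, Bbs7, Deup1, Mapre3, Fez1 and Nme7 matches all had a gap of 2 bases.

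Most RFX1 sites were also RFX3 sites. An RFX3 partner was found for 5524 of 7440 RFX1 peaks (74.2%, 95% exact binomial interval 73.2 to 75.2, counting error only). An RFX1 partner was found for 5527 of 9318 RFX3 peaks (59.3%, 58.3 to 60.3). Matching each peak to its best partner in both directions gave 5520 one-to-one pairs, and the smallest overlap among them was 76 bp. At these pairs the deposited −log10 q, the peak caller's strength of evidence, had a median of 37.0 for RFX1 and 30.1 for RFX3.

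Because the lists differ in length and scale, each peak was given its percentile of −log10 q among the 5520 pairs of its own list. The rank difference is the RFX1 percentile minus the RFX3 percentile. Pairs at +25 points or more are called RFX1-leaning, those at −25 or less RFX3-leaning, and the others level. There were 915 RFX1-leaning pairs (16.6%), 3680 level pairs (66.7%) and 925 RFX3-leaning pairs (16.8%). The values at the edges were 25.02 just inside and 24.995 just outside for RFX1, and −25.01 and −24.95 for RFX3, so the classes are slices of 1 continuous range. Across pairs, Spearman's rho was 0.578 for −log10 q and 0.247 for fold enrichment (n = 5520 pairs from 2 lists, a description). Of the best 10, 100, 500 and 1000 RFX1 peaks, 4, 36, 218 and 550 were also among the best 10, 100, 500 and 1000 RFX3 peaks. The factors therefore shared sites more fully than they shared an order of sites.

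**Figure D1:**
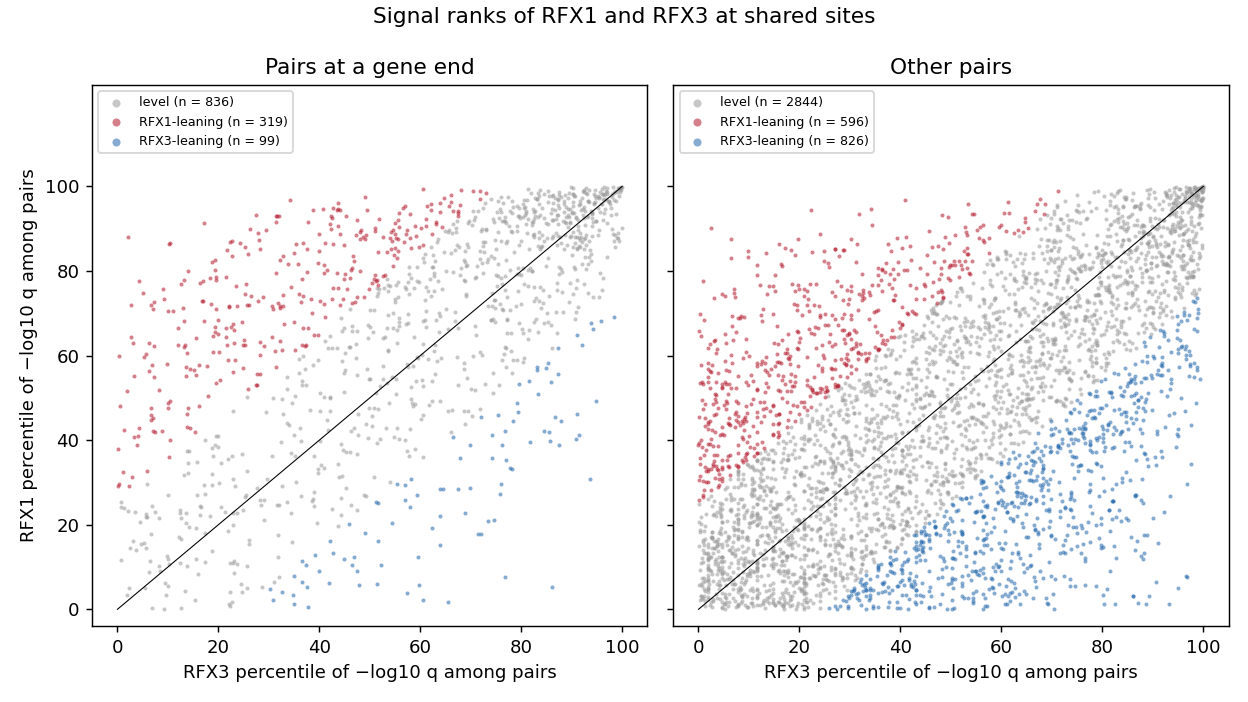
Percentile of −log10 q among the 5520 pairs for RFX1 (vertical axis) against RFX3 (horizontal axis), 1 point a pair, at gene ends (left) and elsewhere (right), coloured by class, with the line of equal percentile. At gene ends 319 pairs lie in the RFX1-leaning corner and 99 in the RFX3-leaning corner; elsewhere the numbers are 596 and 826.

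Sites where RFX1 ranked higher lay at genes more often than sites where RFX3 ranked higher. A pair was placed at a gene end when both summits lay within 1 kb of the same annotated end (start or finish) of a protein-coding gene, which held for 1254 of 5520 pairs (22.7%). The share was 34.9% among RFX1-leaning pairs (319 of 915, 31.8 to 38.1), 22.7% among level pairs (836 of 3680, 21.4 to 24.1) and 10.7% among RFX3-leaning pairs (99 of 925, 8.78 to 12.9). By annotated transcript starts alone the shares were 30.1%, 20.9% and 10.6%. In Fisher's exact tests (two-sided, 3 tests, Benjamini-Hochberg adjusted), the odds ratio of RFX1-leaning against RFX3-leaning pairs was 4.47 (3.46 to 5.79, adjusted p = 7.1e-36). Against level pairs it was 1.82 for RFX1-leaning pairs (1.55 to 2.13, adjusted p = 1.83e-13, Fisher's exact test) and 0.408 for RFX3-leaning pairs (0.323 to 0.511, adjusted p = 1.56e-17, Fisher's exact test). These tests count sites of 2 merged lists, so they describe the lists and carry no replicate error.

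The share at gene ends was higher at higher rank differences, from 8.70% in the decile of pairs where RFX3 ranked highest to 36.6% in the decile where RFX1 ranked highest, with level stretches at deciles 2 to 3 (14.4% and 14.3%) and 6 to 7 (26.4% in each). The contrast was widest among strong sites. In the 25% of pairs with the highest mean percentile, 61.4% of RFX1-leaning, 37.2% of level and 12.9% of RFX3-leaning pairs lay at a gene end. In the 25% with the lowest mean percentile the shares were 15.9%, 11.2% and 12.1%, and none of the 3 Fisher's exact tests there passed (adjusted p 0.286 to 0.693). With fold enrichment in place of −log10 q as the rank, the odds ratio of RFX1-leaning against RFX3-leaning pairs went to 27.6, and against level pairs to 5.22 for RFX1-leaning and 0.189 for RFX3-leaning.

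**Figure D2:**
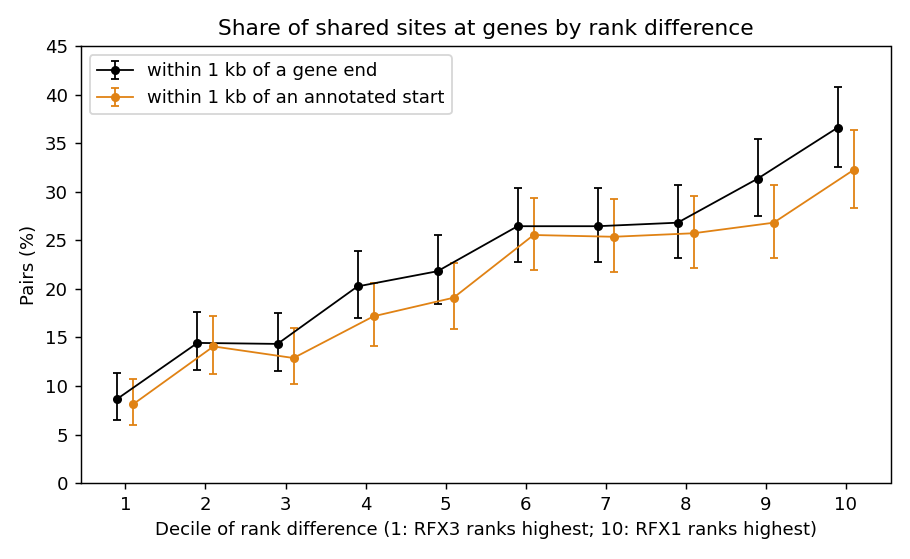
Share of pairs within 1 kb of a gene end (black) or of an annotated start (orange) in each decile of the rank difference, with 95% exact binomial intervals; the leftmost decile holds the pairs where RFX3 ranks highest. The gene-end share is 8.70% in the first and 36.6% in the last.

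For RFX3, the 2 measures of signal differed in opposite directions between gene ends and other sites. RFX3 −log10 q had a median of 35.9 at gene ends and 28.3 elsewhere, whereas RFX3 fold enrichment had a median of 4.92 at gene ends and 8.72 elsewhere. RFX1 was higher at gene ends by both, with medians of 63.7 against 32.4 for −log10 q and 9.67 against 8.03 for fold. RFX1 −log10 q and fold ranked pairs alike (rho 0.865), RFX3 −log10 q and fold less so (rho 0.523). RFX3 had 1 input sample where RFX1 had 2; the part of the inputs in these values was not tested.

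Of 21887 protein-coding genes, 1503 had a pair at an end (6.87%), and 2201 had a pair or an unpaired peak there (10.1%). Only the outermost ends of each annotated gene were used. Pairs at other annotated starts are therefore not counted, here or in the gene lists below. RFX1-leaning genes numbered 398 (26.5%), level genes 996 (66.3%) and RFX3-leaning genes 109 (7.25%), with a median rank difference of 8.55 points. Of the 1503, 508 share their pair with a neighbouring gene, so a pair between divergent promoters counts for both. All rank differences below are to be read against that median.

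Among the 1503 genes with a pair at an end, the largest lead of RFX1 was at Ttll13, which encodes a tubulin polyglutamylase. Its RFX1 peak had a −log10 q of 95.9 and a fold of 15.4, its RFX3 peak 9.71 and 2.40, which put it at percentiles 88.1 and 2.16 (difference 86.0). Both summits lay within 16 bp of the start and 6 bp from each other, so a strong RFX1 site and an RFX3 site near the bottom of its list shared 1 position. Mtr, the gene of methionine synthase, followed with percentiles 86.6 and 10.4 (difference 76.2) and summits 73 bp apart. Mns1, which encodes a protein inside the doublet microtubules of motile cilia, had a −log10 q of 71.3 for RFX1 and 10.6 for RFX3 (difference 73.3). The other leaders were not ciliary genes by the lists used here. They included Evi5l, a Rab GTPase-activating protein gene (76.2), Pheta2 (74.2), Ccdc138 (69.7), Zbtb5 (66.7) and the genes Lyrm7 (69.2) and Ndufa8 (66.1), whose products serve in assembly of respiratory complex III and as a subunit of complex I. In the genes named here the RFX3 fold lay between 2.36 and 3.82.

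Among the same genes, RFX3 led most at Galnt2, which encodes an enzyme that starts mucin-type O-glycosylation. Its −log10 q was 13.9 for RFX1 and 67.5 for RFX3, percentiles 5.38 and 86.1 (difference −80.7), with summits 4 bp apart. Pes1, a ribosome biogenesis gene, had percentiles 7.65 and 76.9 (difference −69.2). Deup1, the gene of a scaffold protein of deuterosomes, on which multiciliated cells make many centrioles, had a −log10 q of 12.7 for RFX1 and 41.7 for RFX3 (difference −63.9). Its summits lay 99 bp (RFX1) and 74 bp (RFX3) before the start, the first upstream of the inverted pair printed above and the second at its downstream edge. Further leaders were Pitpnm1 (−62.8), a phosphatidylinositol transfer protein gene, Rtn1 (−58.2, but −22.1 by fold), a reticulon gene of the endoplasmic reticulum, Atp1b2 (−54.1), a sodium pump subunit gene, Lrrc72 (−53.6) and Folh1 (−53.4). Some of these summits lay far from the nearest annotated start, as at Lrrc72 (10601 and 10588 bp, near the other end of the gene), Folh1 (−710 and −658 bp), Rtn1 (770 and 702 bp) and Pes1 (−533 and −524 bp).

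Among genes with a pair at an end, the sites with the highest mean percentile show where both factors were strong. A rank difference near 0 follows from that choice and is no result. Most of the strongest sites lay elsewhere: of the best 10 peaks of each list, 20% (RFX1) and 30% (RFX3) were at a gene end. Cfap65, a sperm and ciliary axoneme gene, had a −log10 q of 207.7 for RFX1 and 237.2 for RFX3, ranks 13 and 6 of their lists, with summits 7 bp apart. Mapre3, the gene of the microtubule plus-end protein EB3, had 198.1 and 199.0, and Ttll10, a polyglycylase gene, 197.0 and 173.2. Ttll13, with its −log10 q of 95.9 and 9.71, belongs to the same tubulin-modifying family as Ttll10. The pair at 1700094D03Rik and 4933434E20Rik had 234.3 and 216.7, and Fez1, a kinesin adaptor gene of axons, 181.3 and 193.8. Sema4b, Mink1 and the Fbxl19 and Orai3 pair complete the leading sites. Ranked by fold, Sema4b leaned to RFX1 (29.9).

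Ciliary genes were mostly level, as were all genes with a pair. Of 204 ciliary genes on the lists, 130 had a pair at an end. Among them 102 were level (78.5%), 22 RFX1-leaning (16.9%) and 6 RFX3-leaning (4.62%), where the 1503 genes had 66.3%, 26.5% and 7.25%. The median rank difference of the 130 was 7.36 against 8.55 for all genes. These are counts set beside the background, without a test of the lists. List members with a pair only at an annotated start away from the outermost gene ends are not among the 130. They include Kif3a (RFX1-leaning) and, all level, Ift74, Dync2h1, Nphp4, Dnah1, Dnaic2, Dnaaf2, Cfap74, Cfap221, Ak8, Cfap161, Cenpj and Tekt4.

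Intraflagellar transport carries cargo along the cilium. Most of its genes with a pair were level, as were 66.3% of all genes with a pair. Lists of 5 to 10 genes with a pair cannot be set apart from that share. All 5 motor genes with a pair at an end were level, from −15.5 to 7.92. Dync2li1, a dynein-2 light intermediate chain gene, had a −log10 q of 145.8 for RFX1 and 128.8 for RFX3. At annotated starts away from the gene ends, Kif3a had an RFX1-leaning pair (RFX1 −65 and RFX3 −81 bp from the start). Dync2h1 had a level pair at such a start (24 and 8 bp). Complex A had 2 of 5 RFX1-leaning, Wdr19 (33.2) and Ift43 (33.7), with Ift140 just below the threshold at 24.7 and Ift122 level at −0.22; by fold Wdr19 was level (11.7). Complex B had 1 of 10 in each direction: Ift27 leaned to RFX1 (41.8, −log10 q 69.2 and 21.8) and Ift52 to RFX3 (−32.2, 40.4 and 67.3). Members of 1 complex therefore had opposite order of the factors.

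The BBSome, a coat that moves membrane proteins in and out of cilia, had 2 of 9 RFX1-leaning genes, Bbs7 (51.1) and Ttc8 (33.3), and none RFX3-leaning. With 26.5% and 7.25% of all genes with a pair leaning to RFX1 and RFX3, a list of 9 cannot be set apart from the background. Bbs7 had a −log10 q of 57.3 for RFX1 and 14.9 for RFX3 and its window held an inverted pair with 0 mismatches. Bbs1 was strong and level (162.7 and 95.7). The transition zone, the gate at the ciliary base, had 18 genes with a pair, of which 3 leaned to RFX1, Cep290 (46.0), Rpgrip1l (36.0) and Rpgr (25.9), and 2 to RFX3, among them Ahi1 (−45.0), which was level by fold (−6.02). Tctn2 was level at 0.33, with 174.1 and 131.6.

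Among genes of the beating machinery, dynein arms had 3 of 20 RFX1-leaning, Dnah9 (38.8), Dnah6 (26.4) and Dnah7a (25.1), and 2 RFX3-leaning, Wdr63 (−46.0) and Dnah10 (−26.6). Ranked by fold, Dnah6 (24.4) and Dnah10 (−8.82) no longer leaned, nor did Dnah10 among pairs without an RFX2 peak (−22.4). Dnah9 is an outer arm heavy chain gene, and Wdr63 encodes an intermediate chain of an inner arm. Dynein arm assembly had 1 of 10 in each direction, Daw1 (59.1, −log10 q 93.4 and 19.1) and Pih1d2 (−46.2, 24.1 and 52.3); by fold Pih1d2 was level (−17.8). Genes of the radial spokes, the central pair and the nexin-dynein regulatory complex had 5 of 29 RFX1-leaning, Iqcg (50.4), Cfap58 (38.7), Spag6l (31.5), Rsph9 (28.8) and Rsph1 (25.5), and 0 RFX3-leaning. Iqcg shares its pair with Rpl35a. Rsph4a, a radial spoke head gene, was level with 145.1 and 137.7. Microtubule inner protein genes had 3 of 11 RFX1-leaning, among them Mns1 (73.3) and Nme7 (30.4). Basal body genes had 2 of 13, Ccp110 (41.1) and Cep89 (38.6), and both of these lists had 0 RFX3-leaning genes. By fold Ccp110 was level (20.2). Of all genes with a pair, 26.5% leaned to RFX1 and 7.25% to RFX3. In lists this short, 0 RFX3-leaning genes cannot be set apart from that background.

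**Figure D3:**
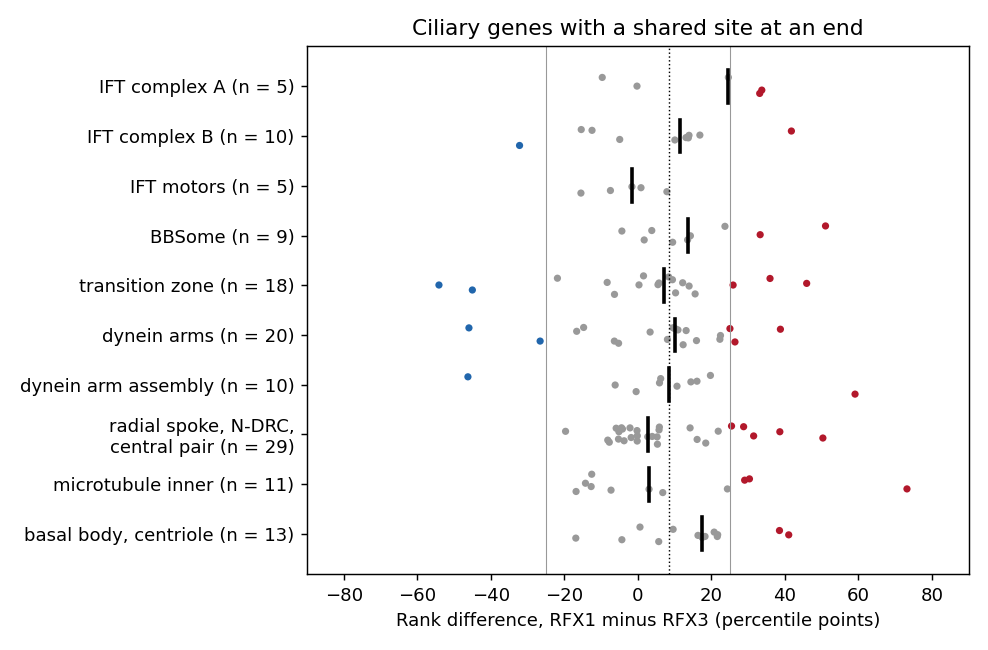
Rank difference (RFX1 minus RFX3, percentile points) of each ciliary gene with a pair at an end, by list, 1 point a gene, with list medians (thick bars), the class limits of −25 and 25 (thin lines) and the median of all 1503 genes (dotted, 8.55). Most points lie between the limits; 22 are red (RFX1-leaning) and 6 blue (RFX3-leaning).

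Regulators of the multiciliated state showed all 3 classes. Foxj1, the master regulator gene of motile cilia, was level with 150.4 for RFX1 and 101.9 for RFX3. Ccno, a cyclin gene needed for making many centrioles, leaned to RFX1 (35.4, 95.6 and 31.6), while Deup1 leaned to RFX3. E2f5 was level, and these were the 4 of 17 members with a pair. Of 10 Rfx family genes 1 had a pair at an end: Rfx2, which leaned to RFX3 (−43.5) with −log10 q of 31.3 for RFX1 and 66.4 for RFX3. Rfx1 had a level pair at an annotated start away from its gene ends, with summits at −23 bp (RFX1) and 2 bp (RFX3). Ribosomal protein genes had a pair at 7 of 76, where all genes had 6.87%, and 4 of these 7 leaned to RFX1 (26.5% among all genes with a pair), Rpl38 (50.9), Rpl35a (50.4), Rps2 (47.7) and Rps27 (29.7), with 0 leaning to RFX3. Of 11 MHC class II genes 0 had a pair or an unpaired peak at an end, and Hedgehog, Notch and planar polarity genes had a pair at 2 of 19, 1 of 18 and 1 of 17. With 6.87% of all genes having a pair, counts this small cannot be set apart from the background.

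Marker genes were counted to check the labelled cell type. Of 12 ependymal markers 5 had a pair, among them Foxj1 and Ccdc153 (RFX1-leaning, 45.1), and 2 more, Tmem212 and Mia, had an RFX1 peak alone. Foxj1, Rsph1, Tekt1 and Dynlrb2 among those 5 are also on the ciliary or multiciliated lists. Marker genes of astroglia (11), neurons (11), oligodendrocytes (10), microglia (8) and choroid plexus (7) had 0 pairs, which for lists of this length is near the 6.87% of all genes and says nothing of the cell type. The neuron list had 1 gene with an RFX1 peak alone, Slc17a6, and the oligodendrocyte list 1 with an RFX3 peak alone, Mag. Binding at a gene does not measure its expression.

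RFX1 peaks were wider than their RFX3 partners. The median width was 337 bp (middle 50% of pairs 286 to 400) for RFX1 and 277 bp (223 to 354) for RFX3, and the median difference was 59 bp (95% interval 56 to 62). RFX1 was the wider in 4068 pairs (73.7%) and RFX3 in 1430 (25.9%). The RFX3 peak lay wholly within the RFX1 peak in 54.4% of pairs and the reverse held in 11.8%. Width followed signal: RFX1 was wider in 94.9% of RFX1-leaning, 76.4% of level and 42.1% of RFX3-leaning pairs, with median differences of 133, 59 and −15 bp. Within a list, wider peaks had higher −log10 q (rho 0.768 for RFX1, 0.602 for RFX3), so width and rank are not separate evidence.

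Summits of both factors lay at nearly the same base. Their distance had a median of 16 bp (middle 50% 7 to 31), was at most 10 bp in 35.5% of pairs and at most 50 bp in 90.5%, and exceeded 100 bp in 80 pairs (1.45%). The RFX1 minus RFX3 shift along the chromosome had a median of 0. The farthest summits, 825 bp apart, lay on chromosome 8 at 84198571 (RFX1) and 84197746 (RFX3), with Zswim4 as the nearest gene at 12371 bp. Next came pairs at distances of 524 bp near Csmd1 on chromosome 8 and 427 bp near 1700037C18Rik on chromosome 16.

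**Figure D4:**
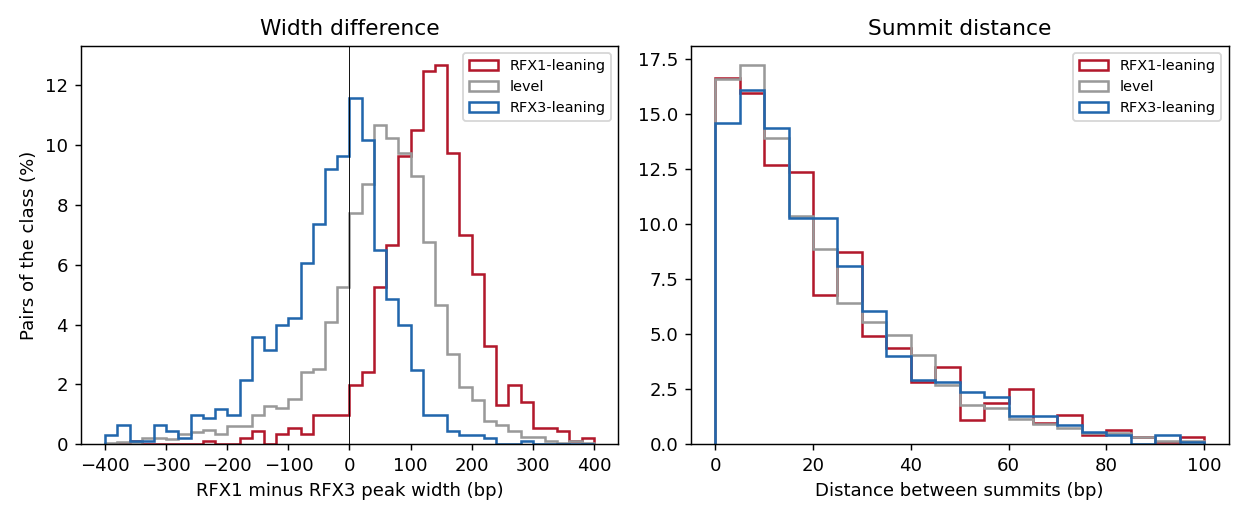
Left, RFX1 minus RFX3 peak width (bp) as a share of the pairs of each class; right, distance between summits (bp). Width differences centre on 133 bp for RFX1-leaning, 59 bp for level and −15 bp for RFX3-leaning pairs, while the summit distances of the 3 classes overlie each other; 44 pairs beyond 400 bp (left) and 80 over 100 bp (right) are not drawn.

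Promoter sequence was compared in 741 windows (250 bases before to 50 bases from an annotated start on) that held both summits. The half-site GTTGCC, searched on both strands, was in 49.4% of them and in 12.6% of all 21263 promoter windows. The inverted pair with at most 1 mismatch, which can contain the half-site, was in 44.3% and 5.58%. By class, the half-site was in 35.6% of RFX1-leaning (28.6 to 43.0, n = 180), 53.4% of level (49.0 to 57.8, n = 509) and 57.7% of RFX3-leaning windows (43.2 to 71.3, n = 52). The inverted pair was in 37.8%, 45.8% and 51.9% of them. Another 5 motifs were counted after the data were seen. The letters CCAAT ran the other way, with 54.4%, 45.6% and 32.7% (38.2% of all windows). The shares of GGGCGG were 58.9%, 55.6% and 71.2% (46.2% of all), and those of CCGGAAG 25.6%, 22.0% and 17.3% (11.6% of all). CACGTG was in 10.6% to 12.2% and TGACGTCA in 3.85% to 5.56% of the windows of the 3 classes (7.84% and 2.23% of all). These differences between classes were not tested, and a match says only that the letters are in the window. Where the inverted pair was found, its gap was 2 bases in 240 of 328 windows, against 519 of 1187 among all promoters.

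RFX1 summits lay closer to the inverted pair than RFX3 summits did. In the 328 windows the median distance from the centre of the match was 6.5 bp for RFX1 (5.5 to 7.5) and 12.5 bp for RFX3 (10.5 to 14.5). Where equally good matches were present, as at Ttll10, the first along the gene was used. From a later match both summits would lie less far downstream, and such distances were not computed. RFX1 was the nearer in 192 windows (58.5%) and RFX3 in 122 (37.2%). Signed along the gene, the RFX1 summit had a median of 0 bp and the RFX3 summit lay 5.5 bp towards the gene (3.5 to 8). The same shift was seen over all 741 windows: the RFX3 summit was downstream of the RFX1 summit in 439 (59.2%, 55.6 to 62.8) and upstream in 287 (38.7%), with a median of 4 bp (3 to 6). The share downstream was 60.0%, 59.1% and 57.7% in RFX1-leaning, level and RFX3-leaning windows. Relative to the inverted pair, however, the RFX3 summit had a median of 8 bp in the 68 RFX1-leaning, 5.5 bp in the 233 level and −6.5 bp (−15 to 6.5) in the 27 RFX3-leaning windows with a match. At Bbs7 the RFX1 summit lay 24.5 bp and the RFX3 summit 82.5 bp from the centre of the match, at Daw1 −1.5 and 4.5 bp, at Fez1 3.5 and 10.5 bp, and at Deup1 −18.5 and 6.5 bp. Of the 11 windows printed in part, 7 had the RFX3 summit downstream and 4 upstream of the RFX1 summit. Those 4 were Mns1 (−33 bp for RFX1 and −107 bp for RFX3), Nme7 (−57.5 and −86.5 bp), Ttll13 (55.5 and 49.5 bp) and Cfap58 (11 and 8 bp).

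**Figure D5:**
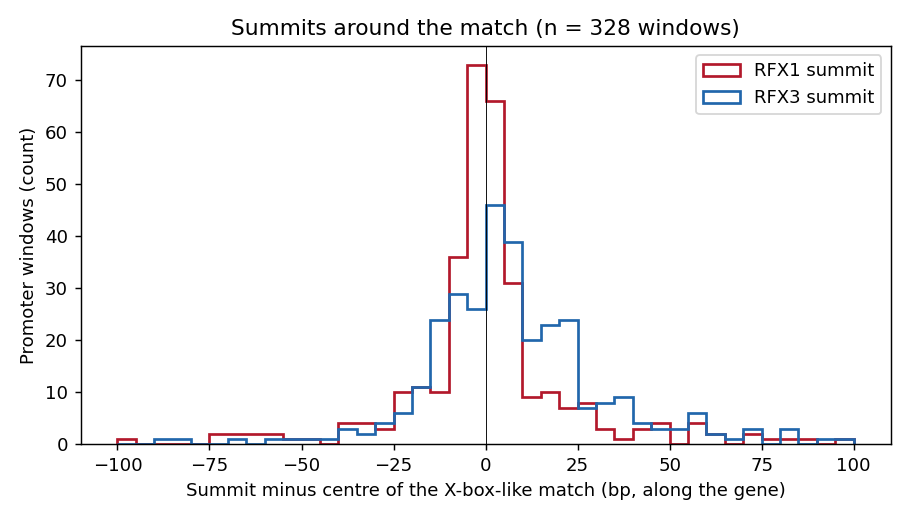
Position of the RFX1 (red) and RFX3 (blue) summit relative to the centre of the best inverted pair in 328 promoter windows, in bp along the gene, in bins of 5 bp. Of equally good matches the first along the gene was used. RFX1 summits pile up at 0, RFX3 summits spread to the downstream side with a median of 5.5 bp; 12 RFX1 and 13 RFX3 summits beyond 100 bp are not drawn.

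Peaks without a partner were weaker than pairs in both lists. The 1916 RFX1 peaks alone had a median −log10 q of 17.9 and the 3791 RFX3 peaks alone 13.6, and 8.35% and 7.81% of them exceeded the median of the pairs. Among the best 1000 peaks of each list, 7 RFX1 and 18 RFX3 peaks lacked a partner. A missing partner means that no peak was called there, not that the factor was absent. RFX1 peaks alone lay at gene ends more often than RFX3 peaks alone, 21.7% (415) against 6.04% (229). Of all pairs 22.7% did, so the share of lone RFX1 peaks was near that of pairs and the share of lone RFX3 peaks below it. A pair needed both summits within 1 kb, a lone peak only its own. A summit of the other factor within 500 bp was found for 21 RFX1 and 20 RFX3 peaks. Promoter windows with a lone RFX1 summit held the inverted pair in 21.8% (n = 188), those with a lone RFX3 summit in 28.6% (n = 91).

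The best RFX1 peaks alone at a gene end were at Glis3, a zinc-finger transcription factor gene (−log10 q 88.3), Slc22a12, a urate transporter gene (78.4), Asb1 (77.2), Ccnb2, a mitotic cyclin gene (73.4), and Lrrc8b, an anion channel subunit gene (67.0). Ciliary genes with RFX1 alone at an end numbered 12 of 204, beside 467 of all 21887 genes. They ran from Bbip1 (61.9), a BBSome gene, and Ift20 (51.7), of complex B, to Spag17 (12.95), of the central pair. Tekt4, also among them, had a level pair at an annotated start away from its ends, with summits at 5 bp (RFX1) and −2 bp (RFX3). The best RFX3 peaks alone were at 2900026A02Rik (67.7), Dpy19l1 (60.3), D5Ertd579e (59.1), Ccdc74a (56.5) and Cfap45 (44.99), a microtubule inner protein gene. Ciliary genes with RFX3 alone at an end numbered 5 of 204, beside 227 of all 21887 genes: Cfap45, Cep135 (36.8), Rsph3b (31.1), Kif17 (25.1) and Cfap47 (18.5). Counts this small cannot tell a preference of ciliary genes for 1 factor. Ttc30a1, of complex B, had a lone peak of each factor near opposite ends, with values of 28.1 for RFX1 and 14.4 for RFX3.

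The largest leads of RFX3 over all positions lay far from genes. The largest lead of RFX3 anywhere was on chromosome 10, where the RFX1 peak at 84173042 to 84173326 had a −log10 q of 12.5 and the RFX3 peak at 84172936 to 84173354 had 89.6 (difference −92.0), 197745 bp from Nuak1. The next 4 lay 12370 to 68556 bp from Gm12447, Amigo2, Tmem17 and Xylt1, with RFX3 folds of 24.5 to 27.9 and RFX1 folds of 4.08 to 5.79. The 5 largest leads of RFX1 lay 39 to 1837 bp from the nearest gene end, and only that at Ttll13 was within 1 kb. The others were nearest to Sertad1 (87.5), Lca5, a ciliary gene of inherited blindness (81.2), Ccna1, a germ-line cyclin gene (76.8), and Etv1 (76.6). These distances are to outermost gene ends. By annotated starts, Lca5 had an RFX1-leaning pair with summits at −30 bp (RFX1) and −9 bp (RFX3).

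RFX2 peaks, which had no part in the ranks, overlapped 1222 of all 5520 pairs (22.1%). By class they overlapped 20.4% of RFX1-leaning (17.9 to 23.2), 26.5% of level (25.1 to 28.0) and 6.38% of RFX3-leaning pairs (4.89 to 8.15). The RFX1-leaning share is near that of all pairs. Strength was not matched between the classes. The RFX1-leaning share varied by chromosome from 13.1% on chromosome 14 to 23.6% on chromosome 19. RFX1 had 2 peaks on chromosome Y and RFX3 had 0.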

How the data were processed

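ChIP-seq peaks of RFX1 and RFX3 were compared in ex vivo ependymal cells (2 ChIP samples each). Per the submitters' processing notes, MACS2 2.0.10.20130520, Bowtie 0.12.7, CASAVA 1.8.2 and GRCm38 were named; these notes do not say which step each served, and the reproducibility rule, the control and the depth are likewise unknown. The deposited fold enrichment of a peak is a ratio over background, the deposited −log10 q its q-value on that scale, and the deposited summit offset the strongest base; replicates were already merged in these lists. The design planned 1 kb around gene ends from the RefSeq gene table (GRCm38.p6, 21887 protein-coding genes); annotated starts (21263, for 17492 genes or 79.9%) came from its promoter table and were added after the files were seen.

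Pairs, percentiles, widths and motifs were computed in Python 3.11.15 with pandas 2.3.3, numpy 2.4.6 and scipy 1.17.1, and the pairing and ranking were tested on simulated data. A pair needed 1 bp in common and a mutual best overlap. Intervals are 95%, exact binomial for shares and by order statistics for medians; they cover the counting of sites only. Named genes were the 10 with the largest rank difference each way, the 10 with the highest mean percentile, every ciliary list member that leaned, the 5 best unpaired peaks of each factor at a gene end and the 5 largest leads each way at any position; other list members named were chosen after their values were seen, and some genes that the rule names are not reported here. Of 442 list members, 433 matched the gene table. The members, lists, tests and naming rule were chosen with earlier results of these data known.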

Additional observations from a re-analysis of the deposited data

How the results depend on the processing

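The share of RFX1 peaks with an RFX3 partner (74.2%) was 69.9% with a reciprocal overlap of 50%, 73.2% with summits within 100 bp, 68.2% against an RFX3 list of equal length and 75.4% among the better 50% of each list; that of RFX3 peaks was 55.8% with reciprocal overlap and 68.2% at equal length. RFX1-leaning and RFX3-leaning pairs made up 24.7% and 24.6% by fold, 27.0% and 27.0% at 15 points, 7.07% and 6.85% at 40 points, and 21.1% and 21.1% among pairs without an RFX2 peak, where the median width difference was 52 bp and the summit distance 17 bp. The inverted pair was in 10.4% of windows with 0 mismatches and in 84.9% with up to 2. By class these were 7.22% and 81.1% (RFX1-leaning), 11.6% and 86.6% (level) and 9.62% and 80.8% (RFX3-leaning). In the 25% of pairs with the lowest mean percentile, a setting added after the data were seen, the Fisher odds ratios were 1.37 (adjusted p = 0.522) and 1.498 (adjusted p = 0.286), and that of RFX3-leaning against level pairs turned to 1.09 (adjusted p = 0.693). The cause was not tested. In every other setting run the 3 Fisher's exact tests kept their direction and passed. Ranked by fold, 3729 of 5520 pairs kept their class, 48 of 56 named genes kept theirs, 7 no longer leaned and 1 newly did. No paired analysis was possible because the replicates had been combined into a single list before deposit, and none could be left out. Depth is unknown, so weak sites of one factor may be missing from the list of the other.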
